A study of Arabidopsis thaliana with 21 samples.

Results

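Crosslinks of the RNA-binding protein AtGRP7 were followed on the transcripts of 6 genes that carry nitrate nitrogen into amino acids in Arabidopsis leaves. They are NIA1 (AT1G77760), NIA2 (AT1G37130), NIR1 (AT2G15620), GS2 (AT5G35630), GLN1;1 (AT5G37600) and GLU1 (AT5G04140). The genes were chosen by name and function, with earlier results of these data known. Every listed XL site (crosslink site) that carries the name of one of them was taken from the 21 deposited libraries. Of the 6 genes, 5 had at least 1 listed position, and together they held 2627 of the 315156 entries. GLN1;1 was in none of the 21 libraries, and 6.76% of its windows of 21 bases also occur in other glutamine synthetase transcripts. In all, 4968 transcripts had a listed position.

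Nitrate is reduced in the cytosol to nitrite by nitrate reductase, encoded by NIA1 and NIA2. Nitrite enters the chloroplast, where nitrite reductase (NIR1) forms ammonium. Plastid glutamine synthetase (GS2) and ferredoxin-dependent glutamate synthase (GLU1) then pass the ammonium into glutamine and glutamate, and in leaves the same pair recaptures the ammonium set free by photorespiration, while GLN1;1 encodes a cytosolic glutamine synthetase.

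The iCLIP libraries came from aerial tissue of 18-day-old plants grown at 20 °C in cycles of 12 h light and 12 h dark, then moved to continuous light (LL), and crosslinked with UV light of 254 nm at 500 mJ/cm2 after 36 h (LL36, subjective dusk) or 24 h (LL24, subjective dawn). AtGRP7-GFP plants express the GFP fusion from the AtGRP7 promoter in the grp7-1 T-DNA mutant (5 libraries at LL36, 3 at LL24), and AtGRP7 R49Q-GFP plants express in grp7-1 a fusion whose RNA-binding domain carries glutamine in place of an arginine (2 and 3 libraries). GFP-only plants express GFP from the AtGRP7 promoter in Col-0 (5 and 3 libraries). The tissue holds many cell types, so that fewer cells that express a gene and less RNA per cell cannot be told apart, and RNA abundance was not measured here.

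An entry gives a base and how many crosslinks fell on it, each from 1 uniquely mapped read after removal of PCR duplicates. Only positions that passed the authors' false discovery rate within their own transcript region and library are listed, so that a position that is not listed may have held crosslinks and is not a count of 0. AtGRP7-GFP libraries held between 27035 and 85639 listed positions at LL36 and between 8092 and 25018 at LL24. GFP-only libraries held between 21 and 210 at LL36 and between 27 and 292 at LL24, and AtGRP7 R49Q-GFP libraries 12 and 532 at LL36 and between 76 and 2710 at LL24. Of 7 transcripts of green tissue, all 7 were listed in each of the 8 AtGRP7-GFP libraries, and of 6 root transcripts none was. The green transcripts together took between 11.4% and 14.3% of the listed crosslinks at LL36 and between 19.8% and 28.4% at LL24. In edgeR, 6 of the 7 were lower at LL36 (adjusted p under 0.05), beside 48 of 1286 transcripts tested (3.73%). When only positions listed at both time points were counted, 2 of the 7 were lower, beside 13 of 596 transcripts.

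The bases around the highest positions of each transcript are shown first, since the crosslinked base is the measurement. Each window runs 5′ to 3′ on the strand of the transcript, from RefSeq's TAIR10.1 genome, with the position in the middle in a capital letter. The positions are those with the most crosslinks at LL36 in the 5′ UTR, the coding exons and the 3′ UTR, without overlapping windows. Added to them are the highest NIA2 position at LL24 and the only GLU1 position listed in all 5 LL36 libraries. The latter stands in place of 1138334, which had the most crosslinks in the GLU1 3′ UTR and whose window overlaps.
NIA2 5′ UTR, chr1:14158521-14158541, plus strand: auuuucguccUcagaucucau
NIA2 coding exon, chr1:14158751-14158771, plus strand: aaccguguucUugaaaccagc
NIA2 3′ UTR, chr1:14161752-14161772, plus strand: auguugguucUuuaaagucuu
NIA2 3′ UTR, chr1:14161784-14161804, plus strand: uauaauguguUcguuguauuc
NIA2 3′ UTR, chr1:14161812-14161832, plus strand: auauuuuuuuUcacaauaaua
GS2 5′ UTR, chr5:13830714-13830734, plus strand: guuuuaagucUucuucaaguc
GS2 coding exon, chr5:13831215-13831235, plus strand: auccaauggcUcagaucuuag
GS2 coding exon, chr5:13831895-13831915, plus strand: uugaagguuaUcugugauacu
GS2 3′ UTR, chr5:13833280-13833300, plus strand: cuauguggucUcucaaguugu
GLU1 coding exon, chr5:1130255-1130275, plus strand: ucauggcgucUcugaaaagga
GLU1 3′ UTR, chr5:1138338-1138358, plus strand: uacaacaauaCcaugguugcu
NIR1 3′ UTR, chr2:6812717-6812737, plus strand: cucucugguuUcagacuuuga
NIA1 coding exon, chr1:29236110-29236130, minus strand: ccugaagguuUggaaggcgaa

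The crosslinked base was a uridine in 12 of these 13 windows. The GS2 window around 13831905 begins in the intron before exon 5, which starts at 13831901. A position was called reproducible when listed in at least 4 of 5 libraries at LL36 or in at least 2 of 3 at LL24. Over all reproducible positions of NIA2 at LL36, 60.3% of the crosslinked bases were U, and 63.2% for GS2, beside 58.1% of the 19165 reproducible positions of all transcripts. At LL24 the shares of U were 64.5% for NIA2 and 59.7% for GS2, beside 57.1% of 10771 positions.

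NIA2, the main nitrate reductase gene of leaves, was listed in all 8 AtGRP7-GFP libraries. Its gene model spans chr1:14158452-14161938 on the plus strand, with 3 exons and 3205 spliced nt, of which 165 belong to the 5′ UTR and 286 to the 3′ UTR. At LL36 the 5 libraries held 795, 988, 287, 263 and 277 crosslinks at 218, 252, 77, 68 and 76 positions. At LL24 the 3 libraries held 93, 279 and 61 crosslinks at 40, 93 and 18 positions. Read as shares, these were 23.4, 24.6, 26.2, 21.6 and 13.3 crosslinks per 10000 listed crosslinks of the library at LL36, and 20.3, 28.4 and 22.4 at LL24. The groups overlapped, and the lowest of all was LL36 replicate 5. The means were 21.8 ± 5.03 at LL36 (SD, n = 5) and 23.7 ± 4.25 at LL24 (SD, n = 3).

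In edgeR's quasi-likelihood test over 1286 transcripts, 173 were higher at LL36 (13.5%) and 48 were lower (3.73%) at an adjusted p under 0.05. The test took transcripts with at least 10 crosslinks in at least 3 of the 8 libraries, and unlisted positions entered as no crosslinks. LL24 alone meets this filter only with all 3 of its libraries, whereas any 3 of the 5 LL36 libraries suffice. Among the 281 transcripts listed in all 8 libraries the balance turned, with 29 higher and 46 lower. None of the 5 listed nitrogen transcripts passed, although NIR1 had an unadjusted p under 0.05 in edgeR and an adjusted p of 0.0350 in DESeq2. NIR1 met the filter through LL36 libraries alone and was not listed at LL24. Neither p-value therefore shows a difference between the time points. For NIA2 the log2 fold change (LL36 over LL24) was -0.08 (SE 0.28, 95% interval -0.69 to 0.53, adjusted p = 0.864 in edgeR). The median log2 fold change over all transcripts tested was 1.41, and -0.03 over those 281, where NIA2 stood at -0.06. The sign for NIA2 turned in 4 of 20 alternatives, none of them past the threshold. The green transcripts moved with the time point over the same libraries, and their part in these shares was not tested.

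**Figure D1:**
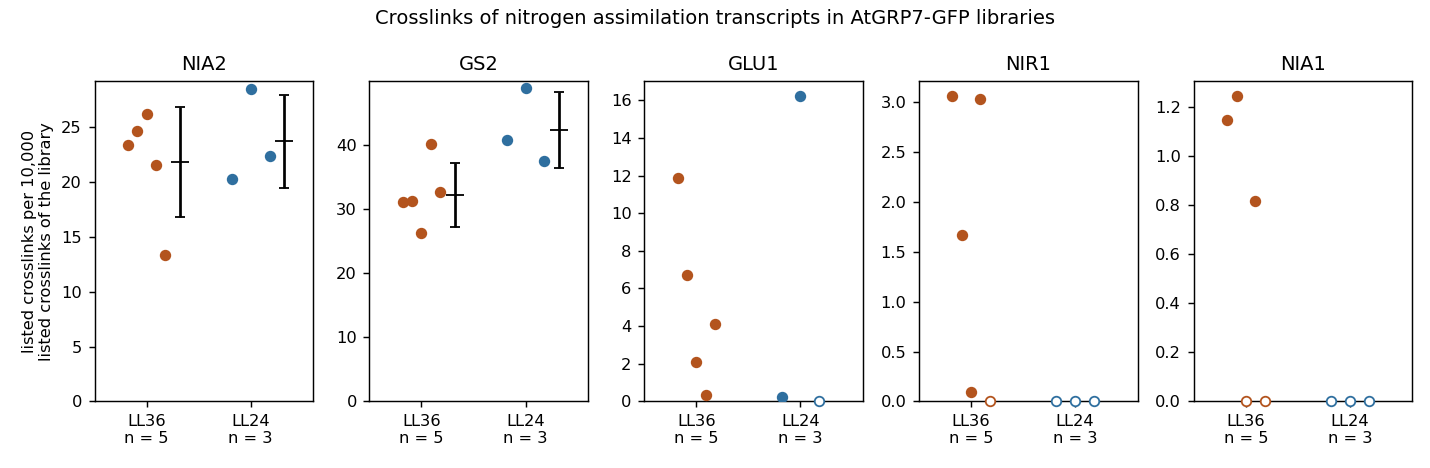
Listed crosslinks per 10000 listed crosslinks of the library (vertical axis, linear, separate scale for each gene) in AtGRP7-GFP libraries at LL36 (n = 5) and LL24 (n = 3), 1 point per library, with open points where the transcript was not listed. Bars for NIA2 and GS2 are the mean and SD, and their time points overlap, while NIR1 and NIA1 have filled points at LL36 only.

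Most reproducible NIA2 positions lay in the 5′ UTR and the 3′ UTR, while many of the other listed positions lay in coding exons. Coding exons held 134, 167, 12, 14 and 14 NIA2 positions with 327, 433, 23, 34 and 27 crosslinks at LL36, and 41 and 3 positions with 98 and 4 crosslinks in LL24 replicates 2 and 3. In LL36 replicates 1 and 2 and in LL24 replicate 2 these came to 41.1%, 43.8% and 35.1% of the NIA2 crosslinks. The 5′ UTR stretch held 13 reproducible positions at LL36 between 14158528 and 14158543, and one base, 14158531, 86 nt before the start codon, carried most of it. That base had 78, 96, 51, 54 and 53 crosslinks in the 5 libraries at LL36, the highest count of any NIA2 position in each. At LL24 it had 22 crosslinks in replicate 3 and was not listed in replicates 1 and 2. The 5′ UTR as a whole gave 17.5%, 16.2%, 30.3%, 27.0% and 31.8% of the NIA2 crosslinks at LL36, and 49.2% in LL24 replicate 3. No NIA2 5′ UTR position was listed in LL24 replicates 1 and 2, and replicate 2 is the deepest of the LL24 libraries.

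The 3′ UTR stretch was listed in every AtGRP7-GFP library and held 42 reproducible positions at LL36, between 14161760 and 14161818, and all 31 NIA2 positions reproducible at LL24, between 14161754 and 14161829. Position 14161762, 110 nt past the stop codon, had 26, 22, 21, 13 and 8 crosslinks at LL36, and 8 and 16 in LL24 replicates 1 and 2. Position 14161794 had 25, 43, 21, 16 and 13 crosslinks at LL36, and 11 in LL24 replicate 2 alone. Position 14161803 had 21, 19, 20, 16 and 7 crosslinks at LL36, and 4, 13 and 2 at LL24. Each of these bases was listed at both time points, and LL36 replicate 5 had the lowest count of its group at all 3. The share of NIA2 crosslinks in the 3′ UTR was 41.4%, 40.0%, 61.7%, 60.1% and 58.5% at LL36 and 100%, 64.9% and 44.3% at LL24.

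At its far end the 3′ UTR stretch differed between libraries. Position 14161822, at the end of a run of uridines 170 nt past the stop codon, had 15 and 12 crosslinks in LL36 replicates 4 and 5 and was not listed in LL36 replicates 1 to 3, which include the 2 deepest libraries. At LL24 it had 6, 13 and 7 crosslinks and was the NIA2 position with the most crosslinks at that time point. Of the 9 NIA2 positions listed at LL36 in replicates 4 and 5 alone, 7 (77.8%) were also listed at LL24, beside 10 of the 74 (13.5%) listed in replicates 1 and 2 alone. Over all transcripts these shares were 32.6% of 1680 and 10.3% of 13413, so that LL36 replicates 4 and 5 shared more of their own positions with LL24 libraries in general.

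**Figure D2:**
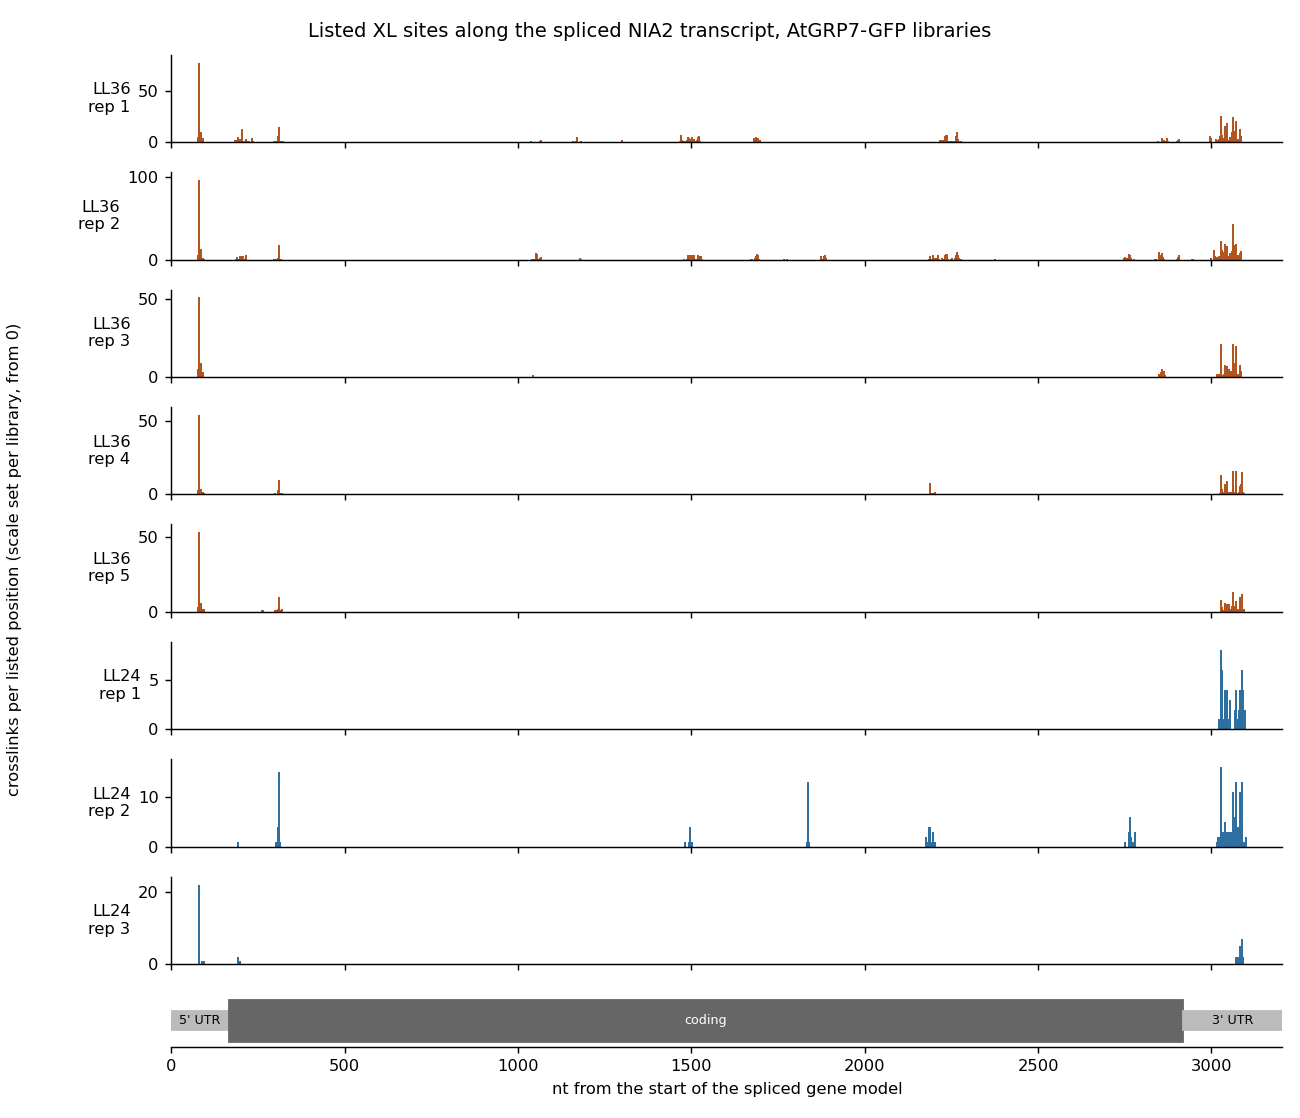
Listed crosslinks per position (vertical axes, linear, scaled per library from 0) along the spliced NIA2 transcript (horizontal axis, nt from the model's start), for the 5 LL36 libraries above the 3 LL24 libraries of AtGRP7-GFP plants, with the gene model at the bottom. The 5′ UTR base with 51 to 96 crosslinks stands out in every LL36 library and in LL24 replicate 3 alone, and the 3′ UTR stretch is present in all 8.

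In the coding part of NIA2, 3 positions between 14158759 and 14158762 were reproducible at LL36 and none at LL24. The highest of them, 14158761, had 15, 18, 10 and 10 crosslinks in LL36 replicates 1, 2, 4 and 5, and 15 in LL24 replicate 2. Of the reproducible NIA2 positions, 22.4% lay in the 5′ UTR, 5.17% in coding exons and 72.4% in the 3′ UTR at LL36, while at LL24 all 31 lay in the 3′ UTR. For all transcripts the shares at LL36 were 12.8%, 35.4% and 47.9%, and 12.2%, 35.9% and 48.0% at LL24. Of the NIA2 positions reproducible at LL36, 21 of 58 (36.2%) were also reproducible at LL24, which is 21 of 31 (67.7%) of the LL24 positions. Over all transcripts, 39.5% of the LL36 and 70.3% of the LL24 positions were shared.

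NIA1 encodes the second nitrate reductase. Its model, chr1:29235721-29239484 on the minus strand, was listed at LL36 only, with 39, 50 and 10 crosslinks at 17, 21 and 6 positions in replicates 1, 2 and 4. It was not listed in the other LL36 libraries or at LL24. Of its 38 listed positions, 6 were in 2 libraries, 32 were in 1, and none was reproducible. The base with the highest sum, 29236120 in exon 4, had 8 and 5 crosslinks in LL36 replicates 1 and 2. Absence from LL24 was common, since 3223 of 4641 transcripts (69.4%) were listed at LL36 only, and 72.5% of those listed in exactly 3 LL36 libraries, as NIA1 was. No window of 21 bases around a listed NIA1 or NIA2 position occurred in the other transcript.

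NIR1, the plastid nitrite reductase, was likewise listed at LL36 only. Its model spans chr2:6810395-6812941 on the plus strand, with 4 exons. LL36 replicates 1 to 4 held 104, 67, 1 and 37 crosslinks at 42, 26, 1 and 13 positions, while replicate 5, the third deepest of the LL36 libraries, held none. All but 20 crosslinks of replicate 1 lay in the 3′ UTR, where 6812727, 61 nt past the stop codon, had 11, 13 and 22 crosslinks in replicates 1, 2 and 4. No NIR1 position was reproducible. In edgeR the adjusted p was 0.0970 for NIR1 and 0.156 for NIA1, and no fold change is given because neither was listed at LL24. Both met the filter of that test through LL36 libraries alone, so these p-values do not measure a difference between the time points. Of the transcripts listed in exactly 4 LL36 libraries, as NIR1 was, 51.6% were in no LL24 library.

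GS2, the plastid glutamine synthetase, had the most crosslinks of the nitrogen transcripts. Its model spans chr5:13830429-13833507 on the plus strand, with 11 exons and 1885 spliced nt, and the 5′ UTR of 324 nt runs from exon 1 into exon 2. At LL36 there were 1055, 1253, 288, 489 and 679 crosslinks at 211, 229, 98, 142 and 192 positions, and at LL24 187, 479 and 102 crosslinks at 77, 154 and 49 positions. These were 31.0, 31.2, 26.3, 40.1 and 32.7 crosslinks per 10000 at LL36, and 40.7, 48.8 and 37.4 at LL24. The groups overlapped through LL36 replicate 4 and LL24 replicate 3, and the means were 32.3 ± 4.99 at LL36 (SD, n = 5) and 42.3 ± 5.87 at LL24 (SD, n = 3).

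The log2 fold change of GS2 was -0.35 (SE 0.21, 95% interval -0.81 to 0.11, adjusted p = 0.236 in edgeR). Without LL36 replicate 4 it was -0.59 and passed the threshold (adjusted p = 0.0466 in edgeR), and with only the positions listed at both time points it was 0.051. Counted as positions, GS2 took 0.289, 0.267, 0.362, 0.476 and 0.400 of 100 listed positions at LL36 and 0.591, 0.616 and 0.606 at LL24. These did not overlap, but how many of all transcripts did the same was not counted. Whether the separation is particular to GS2 is therefore not known. By numbers of positions, all 7 green transcripts were lower at LL36 in edgeR (adjusted p under 0.05), as were 54 of 952 transcripts, with 181 higher. The fit on numbers of positions gave -0.58 with an adjusted p of 0.0670 in edgeR, and the LL24 libraries are the shallower ones. The 7 green transcripts had a median log2 fold change of -0.83, and their part in the GS2 value was not tested.

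GS2 sites fell into narrow groups that recurred at both time points. In the 5′ UTR, 44 positions were reproducible at LL36 and 39 at LL24, up to 13830735 near the end of exon 1, which ends at 13830738. The highest, 13830724, 29 nt before the start codon on the spliced transcript, had 29, 24, 9, 10 and 18 crosslinks at LL36 and 7, 8 and 8 at LL24. Position 13831225, the sixth base of the coding sequence in exon 2, had 28, 22, 17 and 20 crosslinks in LL36 replicates 1, 2, 4 and 5, and 9 and 4 in LL24 replicates 2 and 3. In exon 5, 13831905 had 33, 41, 22, 25 and 23 crosslinks at LL36, and 15 and 16 in LL24 replicates 1 and 2. Each of these bases was listed at both time points and was missing from at most 1 library of either group.

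The 3′ UTR of GS2 was the part that differed between libraries. It took 39.8%, 38.1%, 28.1%, 19.8% and 15.2% of the GS2 crosslinks at LL36, and 37.2% in LL24 replicate 2, while LL24 replicates 1 and 3 listed no GS2 position there. Its highest base, 13833290, 51 nt past the stop codon, had 41, 51, 14, 20 and 15 crosslinks at LL36 and 22 in LL24 replicate 2. There, 18 positions in the 3′ UTR were reproducible at LL36 and none at LL24. In all, 106 positions were reproducible at LL36 (44 in the 5′ UTR, 44 in coding exons, 18 in the 3′ UTR) and 77 at LL24 (39 in the 5′ UTR and 38 in coding exons). Of these, 56 were shared, which is 52.8% of the LL36 and 72.7% of the LL24 positions. Of the 77 LL24 positions, 76 were listed in at least 1 LL36 library.

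**Figure D3:**
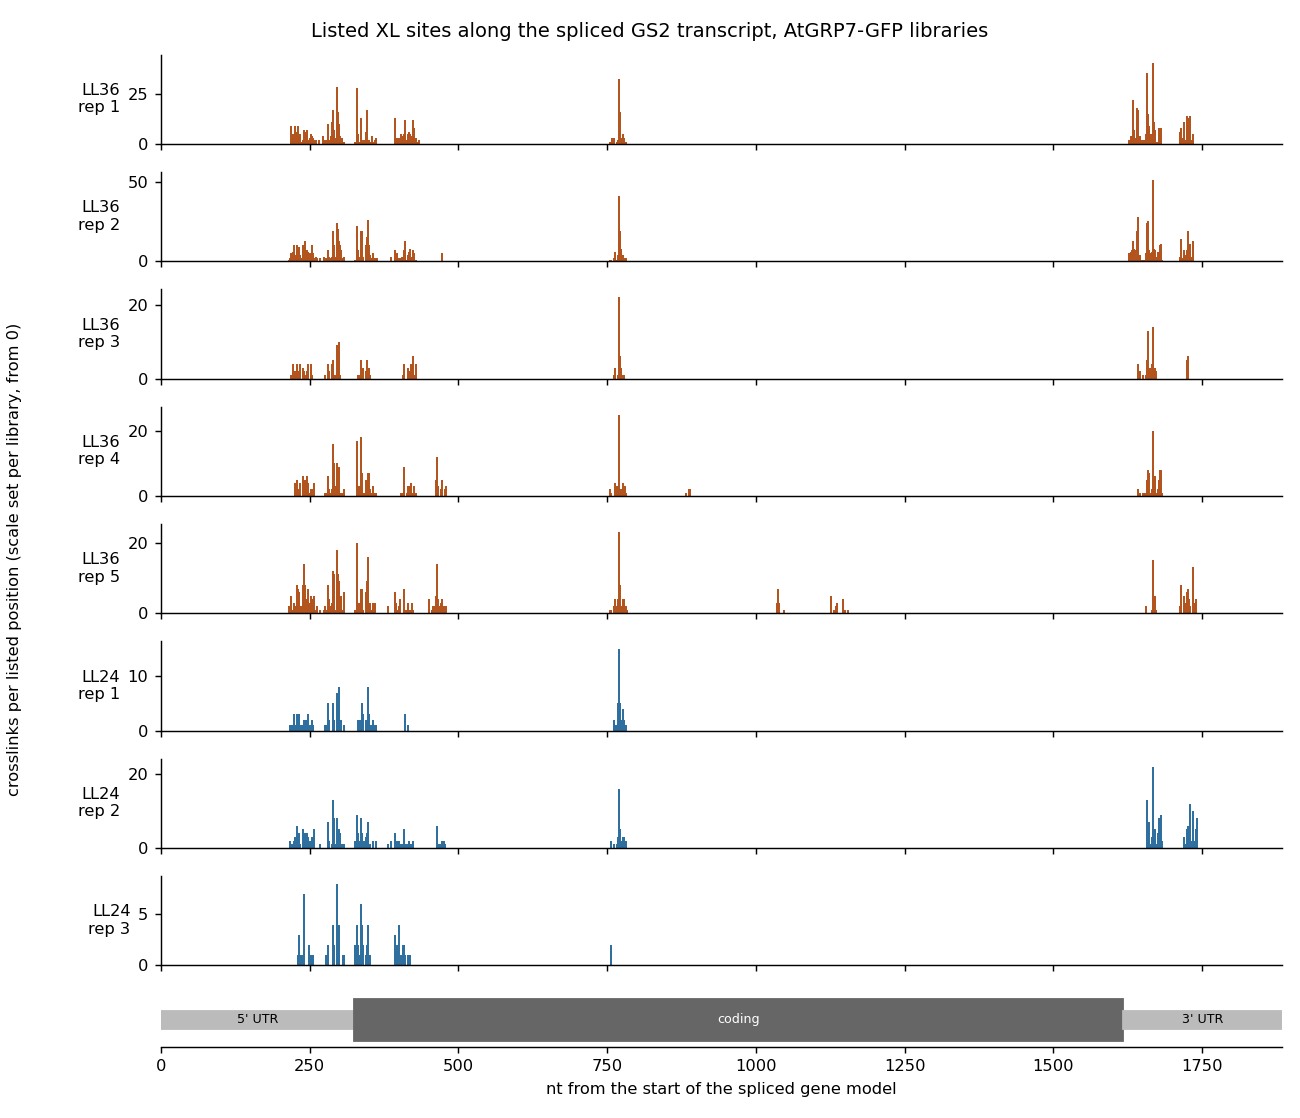
Listed crosslinks per position (vertical axes, linear, scaled per library from 0) along the spliced GS2 transcript (horizontal axis, nt from the model's start), for the 5 LL36 libraries above the 3 LL24 libraries of AtGRP7-GFP plants, with the gene model at the bottom. The 5′ UTR and exon 2 groups appear in all 8 libraries, and the 3′ UTR group in all 5 LL36 libraries and in LL24 replicate 2 alone.

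**Figure D4:**
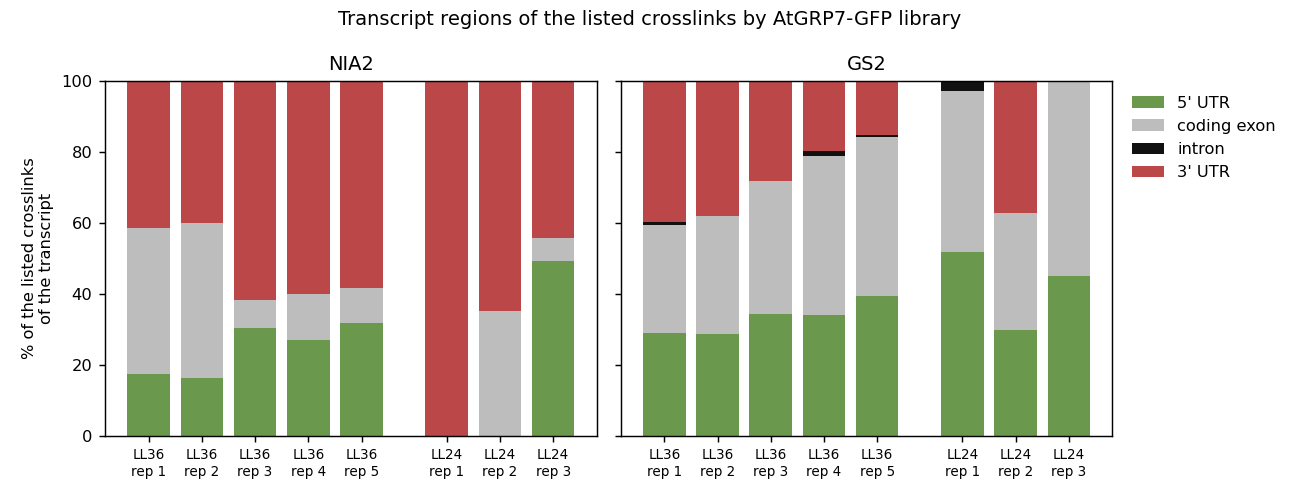
Share of the listed crosslinks of NIA2 and GS2 (vertical axis, percent of the transcript's listed crosslinks) in the 5′ UTR, coding exons, introns and 3′ UTR, 1 bar per AtGRP7-GFP library, with LL36 left of LL24. At LL24 a whole region is missing in single libraries, such as the 3′ UTR of GS2 in replicates 1 and 3.

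GLU1, the ferredoxin-dependent glutamate synthase, is the longest of the transcripts, with 32 exons and 5199 spliced nt at chr5:1130031-1138438 on the plus strand. The model named in the files, the second of the gene, has no 5′ UTR in the annotation used here. GLU1 held 403, 269, 23, 4 and 85 crosslinks at 196, 138, 15, 4 and 46 positions at LL36, and 1 and 159 crosslinks at 1 and 81 positions in LL24 replicates 1 and 2. LL24 replicate 3 did not list it. In shares this was 11.9, 6.70, 2.1, 0.328 and 4.09 crosslinks per 10000 at LL36, and 0.218 and 16.2 in those LL24 replicates. The highest and the lowest listed value were both at LL24, and the log2 fold change of -0.26 had an SE of 1.25 (adjusted p = 0.908 in edgeR). Without LL24 replicate 2, which leaves a single GLU1 crosslink at LL24, the direction turned and the fitted value (5.28, adjusted p = 0.0519 in edgeR) rests on that crosslink.

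GLU1 sites were thin and spread out. No base had more than 12 crosslinks in any AtGRP7-GFP library, and of 332 positions listed at LL36 only 1, 1138348, was reproducible, with a single crosslink in each of the 5 libraries. It lies in the 3′ UTR, 162 nt past the stop codon, and was not listed at LL24, where no GLU1 position was reproducible. The coding position with the most crosslinks, 1130265, had 11 and 8 in LL36 replicates 1 and 2 only. LL36 replicates 3 and 4 listed the 3′ UTR alone. Of the 82 GLU1 positions listed at LL24, 38 (46.3%) were listed at LL36, which is 11.4% of the LL36 positions. Around 2 of the 374 listed exonic positions tested, the window of 21 bases also occurred in GLU2, the close relative of GLU1, and the authors kept only reads that map to 1 place.

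Set per length, the order at LL36 was GS2, NIA2, GLU1, NIR1 and NIA1. GS2 averaged 17.1 ± 2.65 and NIA2 6.81 ± 1.57 crosslinks per 10000 listed crosslinks and kb of spliced model (SD, n = 5), and the ranges of the 2 did not overlap. At LL24 GS2 averaged 22.5 ± 3.12 and NIA2 7.39 ± 1.33 (SD, n = 3). The highest GLU1 library at LL36 had 2.28 and the lowest NIA2 library 4.16, while GLU1, NIR1 and NIA1 overlapped. By crosslinks per 10000, without length, GS2 ranked 62 and NIA2 98 of 4435 transcripts listed at LL36, and 60 and 92 of 1418 at LL24.

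Depth and time point run together in these libraries. The sums of listed crosslinks lie closest between LL36 replicates 3 and 4 (109583 and 122005) and LL24 replicate 2 (98067). In those, NIA2 had 77 and 68 positions at LL36 and 93 at LL24. GS2 had 98 and 142 positions at LL36 and 154 at LL24. GLU1 had 15 and 4 positions at LL36 and 81 at LL24, whereas NIR1 (1 and 13) and NIA1 (none and 6) were listed at LL36 alone. At this depth none of the 3 transcripts listed at both time points had more positions at LL36, but with 1 library at LL24 this is a description without a test.

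**Figure D5:**
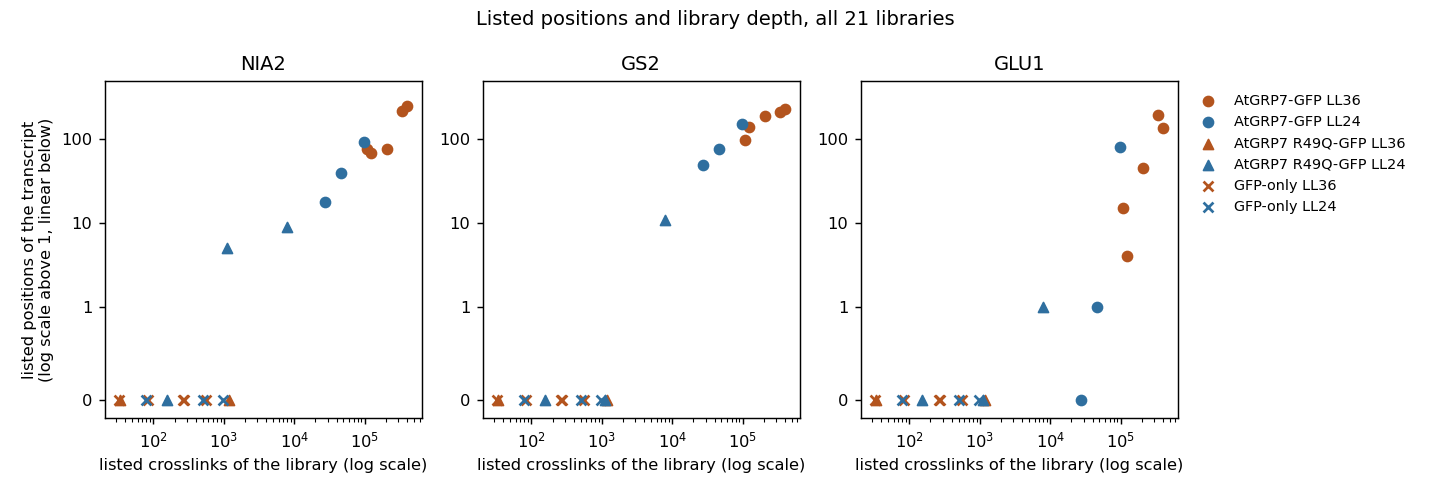
Listed positions of NIA2, GS2 and GLU1 (vertical axis, log scale above 1 and linear below) against the sum of listed crosslinks of the library (horizontal axis, log scale), 1 point per library for all 21, with points at 0 for libraries that do not list the transcript. GFP-only libraries lie at 0 in all panels, at sums of 33 to 983, and LL24 replicate 2 of AtGRP7-GFP plants lies level with or above LL36 libraries of like depth.

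In the controls the nitrogen transcripts were nearly absent. None was listed in any of the 8 GFP-only libraries or in the 2 AtGRP7 R49Q-GFP libraries at LL36. At LL36 each AtGRP7-GFP library listed more NIA2, GS2 and GLU1 positions than any GFP-only library (two-sided exact permutation p = 0.00794 for each on log2(positions + 1), the smallest possible with 5 against 5). This was so for 741 of 4497 transcripts (16.5%). For NIR1 the exact permutation p was 0.0476 and for NIA1 0.167, with 1 and 2 AtGRP7-GFP libraries at LL36 not listing them. The 10 comparisons of these 5 transcripts with controls at LL36 and the 6 at LL24 that had a listed position were not corrected for their number. Against AtGRP7 R49Q-GFP at LL36, NIA2, GS2 and GLU1 did not overlap either (exact permutation p = 0.0952, the smallest possible with 5 against 2), as for 16.7% of transcripts. The 8 GFP-only libraries held 954 listed positions in all, and depth and genotype cannot be told apart.

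At LL24 the R49Q libraries listed a few of the same bases. NIA2 had 40, 93 and 18 positions in AtGRP7-GFP libraries, against 5 in R49Q replicate 1 and 9 in replicate 2. GS2 had 77, 154 and 49 positions in AtGRP7-GFP libraries, against 11 in R49Q replicate 2. The groups did not overlap (exact permutation p = 0.1 for each, the smallest possible with 3 against 3), as for 285 of 1732 transcripts (16.5%). Against GFP-only plants at LL24, NIA2 and GS2 did not overlap either, with the same p, as for 20.3% of transcripts. All 9 NIA2 positions of R49Q replicate 2 lay in the 3′ UTR between 14161773 and 14161798, and all 9 were listed in AtGRP7-GFP libraries, as were the 11 GS2 positions. Of the 5 NIA2 positions in R49Q replicate 1, all in coding exons, 2 were. As a share of the library, NIA2 took 0.307, 0.372 and 0.222 of 100 listed positions in AtGRP7-GFP libraries at LL24. In R49Q replicates 1, 2 and 3 it took 1.19, 0.332 and 0 (exact permutation p = 0.8, with the mean higher in R49Q). The higher mean rests on replicate 1, where 1.19 stands for 5 of 421 positions. The R49Q libraries held 76, 421 and 2710 positions in all. GLU1 had 1 position in R49Q replicate 2, with 5 crosslinks, in an intron where no AtGRP7-GFP library listed one.

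Pentamers rich in U and C were counted in windows of 10 nt on either side of the reproducible positions, on the transcript strand. UUUUU was in 8 of 58 NIA2 windows (13.8%) at LL36 and in 14 of 31 (45.2%) at LL24, beside 7.76% and 7.86% of the windows of all transcripts. Over the NIA2 3′ UTR, 15.8% of windows of this length hold it. These windows overlap, and all of them take in the 1 run of uridines at the end of the 3′ UTR stretch. In GS2, UUCUU was in 19.8% of windows at LL36 and 26.0% at LL24, against 12.8% and 12.4% for all transcripts. Over the whole GS2 transcript 7.29% of windows hold it, and 13.7% over its 3′ UTR. Most reproducible GS2 positions lay in the 5′ UTR and coding exons, for which no such share was counted. UCUUC, which overlaps UUCUU in the 5′ UTR site shown above, was in 15.1% and 19.5% of GS2 windows, and in no NIA2 window. For all transcripts it was in 11.1% and 11.8%, and over the whole GS2 transcript in 4.72%. The GS2 windows overlap too, so that 1 match can be counted in several of them. UUCUG was in no window of either transcript. A match to these letters is a description and not a binding site.

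Of 36 further genes of nitrate and ammonium transport, glutamine, glutamate and asparagine synthesis, molybdenum cofactor and siroheme synthesis and their control, 13 were listed at LL36, 7 of these also at LL24, and 23 in no AtGRP7-GFP library. Reproducible positions were present in 3 of them at LL36 and in 1 at LL24. Of the 5 tested, 1 was higher at LL36 and none lower (beside 13.5% and 3.73% of all transcripts), and their median log2 fold change was 0.85, beside 1.41 for all transcripts. GLT1, the NADH-dependent glutamate synthase, passed with 151, 260, 21, 1 and 73 crosslinks at LL36 and none listed at LL24 (adjusted p = 0.0269 in edgeR). Of the transcripts listed in all 5 LL36 libraries, 19.1% were likewise in no LL24 library. The GLT1 call was lost when any of 6 of the 8 libraries was left out (adjusted p up to 0.0595 in edgeR). GLT1 met the filter of the test through LL36 libraries alone, and what was not listed at LL24 entered as no crosslinks. The call therefore does not show a difference between the time points. GLN1;2, a cytosolic glutamine synthetase, was not called. It had 113, 180, 15 and 86 crosslinks in LL36 replicates 1, 2, 3 and 5, and 14, 38 and 2 at LL24, with 5 positions reproducible at LL24 and 1 at LL36. GLN1;2 also had 1 position in control libraries. ASN2, an asparagine synthetase, had 165, 133, 3, 15 and 64 crosslinks at LL36 and 15 in LL24 replicate 2 alone. Those 3 genes were the ones with reproducible positions at LL36.

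The other 3 with the most crosslinks were not reproducible. AMT1;1, an ammonium transporter, held 111 crosslinks over 4 LL36 libraries and 11 in 1 LL24 library. CLCa, which exchanges nitrate for protons at the vacuole, held 117 over 3 LL36 libraries and 5 in 1 LL24 library. GDH2, a glutamate dehydrogenase subunit, held 69 in 2 LL36 libraries, was not listed at LL24 in AtGRP7-GFP plants and had 2 positions in control libraries. The nitrate transporter NRT1.1 held 28 crosslinks at LL36 and 15 at LL24.

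The transcripts most like NIA2 and GS2 over the 8 AtGRP7-GFP libraries were sought among the 280 others listed in all 8, by Pearson's r of log2(crosslinks per 10000). For GS2 these were GLDP1 (r = 0.930), a glycine decarboxylase subunit of photorespiration, SBPASE (r = 0.910), an enzyme of the Calvin cycle, and EXGT-A3 (r = 0.895). For NIA2 they were PIP2A (r = 0.866), an aquaporin, AT3G26070 (r = 0.837) and EXO (r = 0.806). With 8 libraries that share their depth and time points, these are the highest of 280 values and describe these libraries only.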

How the data were processed

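The values were the deposited counts of 21 iCLIP libraries, which the authors made by trimming with cutadapt 1.9.1, removing PCR duplicates by random barcode, mapping unique reads to TAIR10 with STAR 2.5.2a, and testing each XL site against random placements within its transcript region. They are not scaled for depth. Intron and model suffixes were removed from names, counts were summed per transcript and library, and transcripts with at least 10 crosslinks in at least 3 of the 8 AtGRP7-GFP libraries were tested with edgeR 4.0.16 (quasi-likelihood, TMM, Benjamini-Hochberg over 1286 transcripts, R 4.3.3). DESeq2 1.42.0 was an alternative, with others for the filter, scale, positions and libraries left out. Regions came from the TAIR10.1 annotation, in which every listed position of the 6 genes fell inside the model of its named gene. Permutation p-values are 2-sided, with the smaller tail doubled. The scale per 10000 uses the library's listed crosslinks, with 0.1 added before log2 in the permutation test. The edgeR step was also run on counts simulated from its own fitted dispersions. Those do not mimic unlisted positions, and no conclusion here rests on that run. Python 3.11.15 was used. AtGRP7-GFP libraries held from 27252 listed crosslinks upwards, and p-values measure only the spread between these samples, which may be technical.

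The members and gene lists were chosen with earlier results of these data known. Named genes are the 6 members, the list gene past the threshold and the 5 others with the most crosslinks, and the 3 transcripts most alike, and NRT1.1 was named after its values were seen. Matched depth, leaving out pairs of libraries and leaving out single libraries against controls were added after seeing the data.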

Additional observations from a re-analysis of the deposited data

Results flagged for a closer look

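The NIR1 crosslinks of LL36 replicate 1 stood apart from those of the other libraries that list the transcript. There, 19.2% of them were in coding exons and 80.8% in the 3′ UTR, while the other 3 LL36 libraries had all of theirs in the 3′ UTR. Over 35 such checks of the nitrogen transcripts at LL36, these 2 values, which mirror each other, were the only ones that stood apart. The usual rate by chance of about 1 in 20 does not hold here, since the other 3 were tied and any differing value is then flagged. LL36 replicate 3, 1 of these 3, held a single NIR1 crosslink. LL36 replicate 1 had the most listed NIR1 crosslinks (104).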

How the results depend on the processing

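Counts of called transcripts moved most with the choice of test. Against 221 in edgeR, 398 were called in DESeq2, 119 with a replicate block, 75 with transcripts listed in all 8 libraries (29 higher and 46 lower at LL36, against 173 and 48 in all) and 38 with positions listed at both time points. None was called in the exact permutation test (351 at an unadjusted p under 0.05), whose smallest adjusted p was 0.131. The smallest p this permutation test can give with 5 against 3 libraries is 0.0357. After correction over 1286 transcripts it had little room to call any, so that its 0 is not a result about them. Leaving out 1 library gave 176 to 311. Without LL36 replicates 1 and 2 there were 160, and without LL24 replicates 1 and 3 there were 149. Replicate numbers do not pair the libraries (correlations of deviations -0.018, 0.06 and 0.029), and the block changed no call among the nitrogen transcripts.

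The log2 fold change turned to 0.20 for NIA2 and 0.051 for GS2 with positions listed at both time points, to 0.12 for NIA2 and 2.79 for GLU1 with the replicate block, and to 1.98 (permutation test) and 0.12 (number of positions) for GLU1. Leaving out 1 library gave -0.25 to 0.15 for NIA2, -0.59 to -0.16 for GS2 and -0.90 to 5.28 for GLU1. The nitrogen list lost its 1 call (0 called) with positions listed at both time points and with either pair of libraries left out. It also did so with the permutation test, which called no transcript at all, and leaving out 1 library gave 0 to 1. The 1 call was GLT1 without LL36 replicate 3 or 4 and ASN2 without LL24 replicate 2.

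Reproducible positions at LL36 in 3 of 5 libraries were 169 for GS2 and 4 for GLU1, and in 5 of 5 were 29 for NIA2 and 53 for GS2. At LL24 in 1 of 3 libraries they were 114 for NIA2, 178 for GS2 and 82 for GLU1, and in 3 of 3 were 6 and 25 for NIA2 and GS2. A tolerance of 1 nt gave 180 for GS2 and 4 for GLU1 at LL36, and 48 for NIA2 and 2 for GLU1 at LL24. With 3 nt there were 101, 215 and 7 at LL36 and 64, 121 and 5 at LL24 for NIA2, GS2 and GLU1. With at least 2 crosslinks they were 29, 59 and 0 at LL36, and 14 and 41 at LL24 for NIA2 and GS2. Leaving out 1 library also loosened the rule, to 3 of the 4 left at LL36 and 1 of the 2 left at LL24, and gave for NIA2, GS2 and GLU1 58 to 70, 112 to 157 and 1 to 3 at LL36, and 50 to 106, 97 to 172 and 1 to 82 at LL24.

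The share of LL36 positions also reproducible at LL24 was 50.0% (1 nt), 65.5% (3 nt), 81.0% (LL24 in 1 of 3) and 6.90% (LL24 in 3 of 3) for NIA2. For GS2 it was 70.8%, 79.2%, 85.8% and 21.7%, and 40.2% and 73.6% with LL36 in 3 and in 5 of 5. The share of LL24 positions was 83.9% (3 nt), 41.9% (LL36 in 5 of 5) and 41.2% (LL24 in 1 of 3) for NIA2. For GS2 it was 88.3% (1 nt), 94.8% (3 nt), 88.3% and 50.6% (LL36 in 3 and in 5 of 5), and 51.1% and 92.0% (LL24 in 1 and in 3 of 3).

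Counted as crosslinks, NIA2 had 23.1% in coding exons and 52.3% in the 3′ UTR at LL36, and 16.4%, 13.9% and 69.7% in the 5′ UTR, coding exons and 3′ UTR at LL24. GS2 had 28.2% in the 3′ UTR at LL36 and 12.4% at LL24. Per 100 listed positions, NIA2 at LL24 turned to higher in R49Q (p = 0.8 in the exact permutation test). With 1 library left out, the exact permutation p against GFP-only at LL36 stayed at 0.0159 for NIA2, GS2 and GLU1, and was 0.0159 to 0.0952 for NIR1 and 0.0952 to 0.333 for NIA1. Against R49Q at LL36 it was 0.133 to 0.333 for NIA2, GS2 and GLU1, 0.133 to 0.667 for NIR1 and 0.4 to 1 for NIA1. At LL24 it was 0.2 for NIA2 and GS2 against either control, 0.2 to 0.8 for GLU1 against GFP-only and 0.4 to 1 against R49Q. In these cases the cause was not tested, apart from the fewer libraries or positions that a setting keeps. The part of depth in which sites are listed was not tested.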

Other observations

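The highest 5′ UTR base of NIA2 (14158531) and the sixth base of the GS2 coding sequence (13831225) share 9 bases around the crosslink. These are CUCAGAUCU, of which the second is the crosslinked uridine. This shared run was noticed in the windows shown in the report. The 8 bases from the crosslinked one on, UCAGAUCU, were at 5 of 19165 reproducible positions at LL36 (0.0261%), in 5 transcripts. The highest NIR1 base (6812727) shares the first 5 of them, UCAGA. UCAG starting at the crosslinked base was at 156 of the 19165 positions (0.814%) and in 3 of the 13 windows printed, and no test is given because the pattern was chosen after the windows were seen.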
